A study of Homo sapiens with 14 samples.

Results

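The comparison asked whether overexpression of PDGFRα, the alpha receptor for platelet-derived growth factor (PDGF), was accompanied by the same expression changes in 2 human prostate cancer cell backgrounds. It rested on 8 of the 14 arrays and 4 of the 7 lines of the study, chosen by their labels, and on all 18372 genes tested. PC3-N and PC3-N(PDGFRα) make up the PC3-N background, and DU-145 and DU-145 (PDGFRα) the DU-145 background. In each pair the second line overexpresses PDGFRα and the first is the unmodified line. Each line had 2 arrays, replicates 1 and 2, taken from different passages. The medium was DMEM with serum from fetal calves and gentamicin for every line. The labels call PC3-N(PDGFRα) bone metastatic and the other 3 lines non-bone metastatic. PC3-N is a subline of PC3, which came from a bone metastasis of a prostate carcinoma, and DU-145 came from a brain metastasis. No control line carried through the same handling without the receptor was used here, so a response below is a difference between an overexpressing line and its unmodified line, and the receptor and other differences between those lines cannot be told apart. The p-values measure the spread between passages of a line, not between independently made lines.

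PDGFRα is a receptor tyrosine kinase best known from mesenchymal cells. PDGF dimers bring receptor chains together, the chains phosphorylate each other, and adaptors and enzymes bound to them feed the PI3K and MAPK pathways. MAPK output induces immediate early genes and inhibitors that dampen the pathway. NF-kB is held in the cytoplasm by inhibitors of the IkB family and, once released, drives genes for cytokines and for its own inhibitor. Its part in the genes below was not tested. In prostate cancer the receptor has been studied for its part in metastasis to bone.

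The measure was the difference between responses, that is, the log2 response in PC3-N minus the log2 response in DU-145. A positive value is a response that was higher in PC3-N. A gene was called when limma's Benjamini-Hochberg adjusted p over all 18372 genes was under 0.05, in this difference or in either response. A gene was bright in both backgrounds when its mean intensity was 50 or more in at least 1 line of each. That held for 6395 genes, and 5781 had a mean of 50 or more in all 4 lines. Array medians lay between 29.9 and 31.6, so genes under 50 lie near the lower end of the scale, where RMA intensities are compressed and a response is a low estimate or cannot be seen.

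PDGFRA itself was measured at 103 and 109 in PC3-N and at 817 and 850.4 in PC3-N(PDGFRα). In DU-145 it was 28.2 and 25.5, and in DU-145 (PDGFRα) 130 and 92.2. Both overexpressing lines were thus above their unmodified line on every array, as their labels state. The level reached in DU-145 (PDGFRα) was near that of unmodified PC3-N, with line means of 111 against 834 in PC3-N(PDGFRα). A difference between backgrounds below therefore cannot be told apart from a difference in the receptor level reached. The rise was 2.97 on the log2 scale in PC3-N (limma adjusted p = 8e-05) and 2.03 in DU-145 (adjusted p = 0.0045). The difference between them was 0.94 (SE 0.27, 95% interval 0.35 to 1.54) and was not called (limma adjusted p = 0.18, 0.069 to 0.36 over 16 alternatives). Because unmodified DU-145 lay near the lower end, its rise is a low estimate.

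The 2 arrays of a line correlated at 0.989 to 0.995 over all genes. CTNNA1, the alpha-catenin gene deleted in PC3 cells, was at 23.3 and 24.0 in the PC3-N lines and at 220 and 179 in the DU-145 lines (line means). All 4 epithelial markers (KRT8, KRT18, EPCAM and CDH1) reached 50 in some line, with summed levels of 1190 and 1130 in PC3-N and PC3-N(PDGFRα) and 2610 and 1880 in DU-145 and DU-145 (PDGFRα). The 4 stromal markers summed here were COL1A1, COL3A1, DCN and LUM. Of these COL1A1 alone reached 50, at 51.4 in DU-145 (PDGFRα), and the summed level stayed between 117 and 122. A longer list of 8 stromal markers also held PDPN, its only member bright in both backgrounds. PDPN did not stay flat. Its line mean went from 49.5 to 80.75 with the receptor in PC3-N cells (0.70, limma adjusted p = 0.022). For the DU-145 pair it went from 36.0 to 50.1 (0.47, adjusted p = 0.15, not called). The leukocyte marker PTPRC lay between 19.9 and 20.5, near the lowest intensity on the arrays. Of the other leukocyte and endothelial markers, CD68, which many cell types carry in lysosomes, PECAM1 and KDR reached 50.

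The response differed between the backgrounds for 53 of the 6395 genes bright in both, which is 0.829% of them, against 98 of all 18372 genes, 0.533%. Of the 53, 43 had a higher response in PC3-N (0.672% of bright genes) and 10 a lower one (0.156%). By value, 50 of the 53 had responses of opposite sign, the exceptions being NUP37, NIN and FABP6, against 42.5% of all bright genes; choosing genes by the size of the difference favours opposite signs, so nothing is read from that share. Both responses were called for 2 of the 53 and that in PC3-N alone for 36, and 17 had opposite signs with an unadjusted p under 0.01 in each background. All 43 genes with a higher response had a positive value in PC3-N and 41 had a negative value in DU-145. Their medians were 0.49 and -0.31, against 0.01 and -0.04 for all bright genes. The rise in PC3-N was itself called for 28 of the 43 and the fall in DU-145 for 8. All 10 genes with a lower response fell in PC3-N, and none of them had a called rise in DU-145. The choice by the difference favours these signs and medians too, so nothing is read from them. Among the 53 genes, 16 differed at least 2-fold. For 9, among them PLAU and SQSTM1, neither response was called alone, although their difference was.

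Taken alone, the response in PC3-N was called for 405 genes, 2.2% of those tested, with 1.52% higher and 0.68% lower, and the response in DU-145 for 57, 0.31%, with 0.0653% higher and 0.245% lower. At an unadjusted p under 0.01 the shares were 6.18% in PC3-N (3.76% higher, 2.43% lower) and 4.71% in DU-145 (1.5% higher, 3.21% lower). Across the genes bright in both, the responses had a Pearson correlation of 0.21 over 6395 genes, a description of genes that share arrays and normalization and are not independent. For 5834 of these genes (91.2%) the 95% interval of the difference lay within -1 to 1, so a difference above 2-fold either way lay outside it. The interval had a median width of 0.74. The count of 53 depended on single arrays and on the other lines. Leaving out PC3-N replicate 1 gave 19. Leaving out PC3-N(PDGFRα) gave 11 for its replicate 1 and 19 for its replicate 2. For DU-145 the counts were 28 when replicate 1 was dropped and 152 when replicate 2 was, and for DU-145 (PDGFRα) they were 33 and 21. With the 8 arrays alone, without the 6 that add only to the estimate of the spread, it was 4, and with quantile normalization it was 47, with 29 higher and 18 lower.

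**Figure D1:**
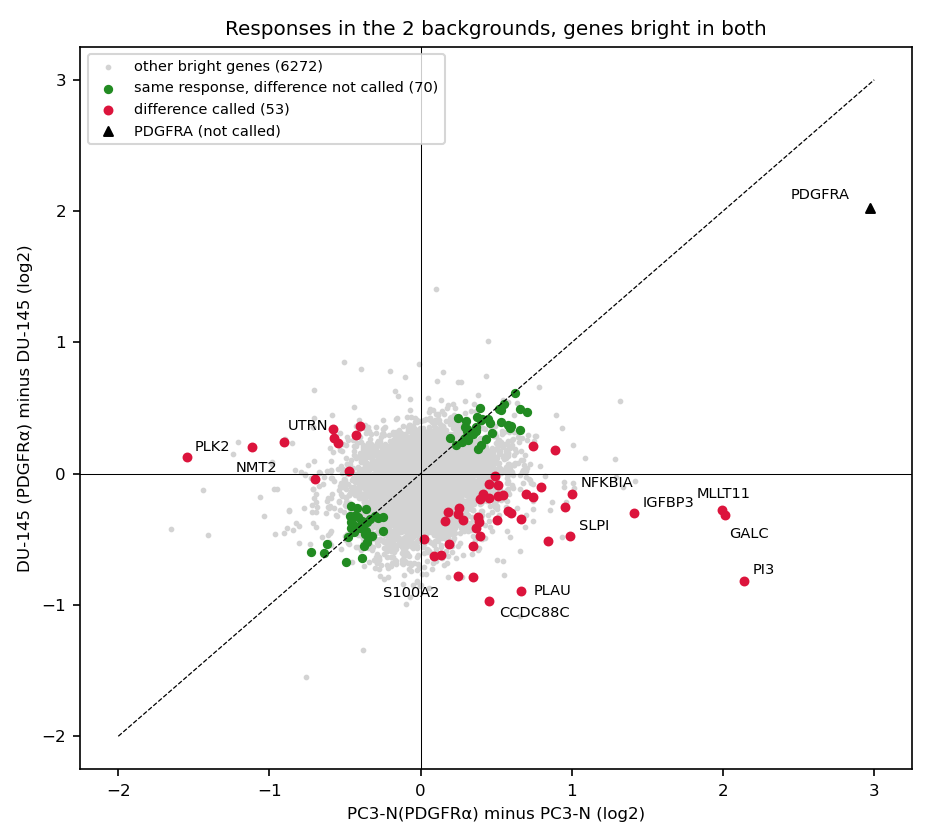
Each point is 1 of the 6395 genes bright in both backgrounds, with its log2 response in PC3-N on the x axis and in DU-145 on the y axis; the dashed line marks equal responses. The 53 called genes (red) lie mostly where the responses have opposite signs, 70 genes with the same response and no called difference (green) lie along the dashed line, and PDGFRA (triangle) is at 2.97 and 2.03.

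PI3, the elastase inhibitor elafin, was at 260.0 and 356 in PC3-N and at 1551 and 1161 in PC3-N(PDGFRα). In DU-145 it was 71.6 and 56.8, and in DU-145 (PDGFRα) 31.3 and 41.9. PI3 therefore rose in PC3-N, by 2.14 (limma adjusted p = 0.0013), while its value in DU-145 was -0.82 and not called (adjusted p = 0.14). The difference was 2.96 (SE 0.29, limma adjusted p = 0.0043), the largest called among genes bright in both. SLPI, a related inhibitor of neutrophil elastase, showed the same pattern at lower levels: 61.8 and 50.5 in PC3-N, 123 and 100.1 in PC3-N(PDGFRα), 56.3 and 46.3 in DU-145, and 34.6 and 38.8 in DU-145 (PDGFRα). SLPI rose by 0.99 in PC3-N (adjusted p = 0.01), against -0.48 in DU-145, a difference of 1.47 (SE 0.21, limma adjusted p = 0.019). Both genes counted as bright in DU-145 through the unmodified line alone.

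PLAU, the urokinase that activates plasminogen at the cell surface, was at 154 and 201 in PC3-N and at 277 and 282 in PC3-N(PDGFRα). In DU-145 it was 179 and 147, and in DU-145 (PDGFRα) 94.4 and 80.6. Neither pair of lines overlapped, and the order of the lines was opposite in the 2 backgrounds. The values were 0.67 in PC3-N and -0.89 in DU-145, neither called (limma adjusted p = 0.12 and 0.094), and their difference was 1.56 (SE 0.27, adjusted p = 0.04). C10orf55, a non-coding RNA gene whose interval overlaps PLAU in RefSeq (GRCh38.p14), had a difference of 0.71 (limma adjusted p = 0.033), and the signals of these genes were not separated here; it was named after its value was seen. IGFBP3, a secreted carrier of insulin-like growth factors, was at 91.7 and 106 in PC3-N and at 232 and 297 in PC3-N(PDGFRα). In DU-145 it was 111 and 75.0 and in DU-145 (PDGFRα) 61.7 and 88.9, so its DU-145 arrays overlapped. IGFBP3 rose by 1.41 in PC3-N (limma adjusted p = 0.0096), against -0.30 in DU-145, with a difference of 1.71 (SE 0.29, adjusted p = 0.039). The calls of PLAU and IGFBP3 were each lost in 9 of 16 alternatives, with adjusted p from 0.0043 to 0.15 and from 0.0031 to 0.18. Dropping PC3-N replicate 1, either PC3-N(PDGFRα) array, DU-145 replicate 1 or DU-145 (PDGFRα) replicate 1 ended both, and dropping DU-145 (PDGFRα) replicate 2 that of PLAU. That of SLPI was lost in 5 (adjusted p 0.0017 to 0.11), among them those that dropped replicate 1 of PC3-N(PDGFRα), DU-145 or DU-145 (PDGFRα), and that of PI3 only with the 8 arrays alone (adjusted p = 0.067, within a range of 2.6e-05 to 0.067).

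GALC and DSE act on glycolipids and glycosaminoglycans, and both were low in PC3-N and high in DU-145 before the receptor was added. GALC, the lysosomal galactosylceramidase, was at 32.1 and 31.3 in PC3-N and at 145 and 112 in PC3-N(PDGFRα). DU-145 had 217 and 183, and DU-145 (PDGFRα) 155 and 165. PC3-N(PDGFRα) thus came close to the DU-145 lines, and no other PC3 line did, with line means of 26.4 to 40.2. GALC rose by 2.01 in PC3-N (limma adjusted p = 8e-05), against -0.32 in DU-145, and the difference was 2.33 (SE 0.16, adjusted p = 0.00046). DSE, the epimerase that forms dermatan sulfate, was at 33.8 and 29.8 in PC3-N, 59.5 and 54.7 in PC3-N(PDGFRα), 194 and 181 in DU-145, and 117 and 148 in DU-145 (PDGFRα). It rose by 0.84 in PC3-N (limma adjusted p = 0.0076), had -0.51 in DU-145, and differed by 1.35 (SE 0.17, adjusted p = 0.01). Its call was lost without PC3-N(PDGFRα) replicate 1 and with the 8 arrays alone (adjusted p up to 0.078, from 0.0012). GALC and DSE counted as bright in PC3-N through the overexpressing line alone.

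MLLT11, a small protein first found as a fusion partner in leukaemia, was at 163 and 154 in PC3-N and at 667 and 592 in PC3-N(PDGFRα). Its DU-145 arrays were 75.7 and 40.8 and its DU-145 (PDGFRα) arrays 43.1 and 48.7, which overlap. MLLT11 rose by 1.99 in PC3-N (limma adjusted p = 0.003), and the difference was 2.27 (SE 0.32, adjusted p = 0.019). Unmodified DU-145 alone made it count as bright in that background. The homeobox gene HOXB9 was at 45.6 and 54.6 in PC3-N, 102 and 90.9 in PC3-N(PDGFRα), 83.8 and 71.7 in DU-145, and 64.5 and 65.3 in DU-145 (PDGFRα). It rose by 0.95 in PC3-N (limma adjusted p = 0.0036) against -0.26 in DU-145, a difference of 1.21 (SE 0.16, adjusted p = 0.014). MLLT11 lost its call in 7 of 16 alternatives, among them each fit that dropped PC3-N replicate 1 or an array of either overexpressing line (adjusted p 0.00061 to 0.13), and HOXB9 in 3, without PC3-N(PDGFRα) replicate 1, without DU-145 (PDGFRα) replicate 2 and with the 8 arrays alone (0.0023 to 0.09).

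CCDC88C encodes Daple, a protein that binds the Wnt signal transducer Dishevelled. On the probe set used, it changed in both backgrounds and in opposite directions. It was at 44.7 and 43.3 in PC3-N and at 61.9 and 58.3 in PC3-N(PDGFRα), and at 54.2 and 53.1 in DU-145 and 28.4 and 26.6 in DU-145 (PDGFRα). The rise of 0.45 in PC3-N (limma adjusted p = 0.0066) and the fall of -0.97 in DU-145 (adjusted p = 0.00035) were both called, and the difference was 1.42 (SE 0.08, adjusted p = 0.00012). A second probe set for the gene, with a mean of 55.5, gave -0.06 in PC3-N and -0.37 in DU-145. It showed no rise in PC3-N, and its difference was 0.31 (limma adjusted p = 0.71). The probe sets thus disagree, and their mean differed by 0.86. CCDC88C counted as bright through PC3-N(PDGFRα) and unmodified DU-145, on the probe set used. The only other gene with both responses called was COX14, an assembly factor of cytochrome c oxidase, with 0.28 in PC3-N and -0.35 in DU-145 and a difference of 0.64 (limma adjusted p = 0.0092); it was named after its values were seen.

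NFKBIA, which encodes the NF-kB inhibitor IkBα and is itself an NF-kB target, was the called gene of the NF-kB list. It was at 88.9 and 107 in PC3-N and at 207 and 184 in PC3-N(PDGFRα). DU-145 had 383 and 352, and DU-145 (PDGFRα) 352 and 311. NFKBIA rose by 1.0 in PC3-N (limma adjusted p = 0.0034), stood at -0.15 in DU-145 (adjusted p = 0.65), and the difference was 1.15 (SE 0.16, adjusted p = 0.019). It lost its call in 6 of 16 alternatives, among them those that dropped PC3-N replicate 1, PC3-N(PDGFRα) replicate 1, DU-145 replicate 1 and DU-145 (PDGFRα) replicate 2 (adjusted p 0.004 to 0.096). IL1B, the inflammatory cytokine interleukin-1 beta, was at 71.4 and 95.5 in PC3-N and at 1103 and 1066 in PC3-N(PDGFRα), while all 4 DU-145 arrays lay between 27.3 and 32.1. The neutrophil-attracting chemokine gene CXCL6 was at 45.9 and 45.0 in PC3-N, at 172 and 175 in PC3-N(PDGFRα), and between 24.9 and 31.0 in DU-145 and DU-145 (PDGFRα). Their differences of 3.64 (SE 0.19, limma adjusted p = 9e-05) and 1.83 (SE 0.17, adjusted p = 0.0024) kept the call in all 16 alternatives, but neither gene was bright in DU-145, so how either responded there cannot be read.

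The related chemokines offer a view of genes that DU-145 cells do express. CXCL1, CXCL2 and CXCL8 attract neutrophils, as CXCL6 does. CXCL8 was at 106 and 145 in PC3-N, 319 and 307 in PC3-N(PDGFRα), 164 and 231 in DU-145, and 215 and 154 in DU-145 (PDGFRα). CXCL2 was at 47.5 and 47.9 in PC3-N, 133 and 122 in PC3-N(PDGFRα), 197 and 240.4 in DU-145, and 280.1 and 157 in DU-145 (PDGFRα). CXCL1 was at 149 and 179 in PC3-N, 339 and 292 in PC3-N(PDGFRα), 126 and 167 in DU-145, and 141 and 137 in DU-145 (PDGFRα). In all 3 the PC3-N arrays separated and the DU-145 arrays overlapped. All 3 rose in PC3-N, by 1.34, 1.42 and 0.95 (limma adjusted p = 0.038, 0.033 and 0.024), and stood at -0.10, -0.06 and -0.06 in DU-145. The differences of 1.44, 1.47 and 1.01 were not called (limma adjusted p = 0.16, 0.16 and 0.12, 0.042 to 0.36 over the alternatives), with 95% intervals of 0.58 to 2.30, 0.59 to 2.35 and 0.47 to 1.55. The family members CXCL3 and CXCL5 were not bright in both backgrounds, and their differences of 0.02 and 0.58 were not called (limma adjusted p = 0.99 and 0.11).

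The promoters of CXCL6, CXCL1 and CXCL2 share 1 short run of letters. NFKBIA holds a match to the NF-kB consensus too, while in CXCL8 and IL1B no exact match was found. The 250 bases before the start sites of these 6 genes are printed to show this. They come from RefSeq (GRCh38.p14), read 5′ to 3′ on the strand of each gene: CXCL6 at chr4:73836428-73836677, CXCL1 at chr4:73869143-73869392 and CXCL8 at chr4:73740319-73740568 on the plus strand, and CXCL2 at chr4:74099196-74099445, NFKBIA at chr14:35404750-35404999 and IL1B at chr2:112836780-112837029 on the minus strand. Capitals mark exact matches to the NF-kB consensus, searched as GGGRNNYYCC on either strand (R is A or G, Y is C or T, N is any base). Overlapping matches are joined into 1 run, and in CXCL8 capitals mark a match to TGANTCA. Inexact sites and sites further away were not counted, so a promoter without a match can still hold a site. CXCL8 holds tggaatttcc, which is 1 base off the string.
CXCL6: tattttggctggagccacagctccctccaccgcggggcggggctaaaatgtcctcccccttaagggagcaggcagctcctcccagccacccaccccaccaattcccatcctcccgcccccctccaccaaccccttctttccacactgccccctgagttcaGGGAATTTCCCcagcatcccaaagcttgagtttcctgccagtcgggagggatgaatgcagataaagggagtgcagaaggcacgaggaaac
CXCL1: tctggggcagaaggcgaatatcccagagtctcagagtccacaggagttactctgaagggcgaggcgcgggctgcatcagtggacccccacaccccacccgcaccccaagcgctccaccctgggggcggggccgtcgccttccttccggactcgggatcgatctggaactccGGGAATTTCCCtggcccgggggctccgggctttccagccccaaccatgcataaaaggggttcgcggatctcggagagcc
CXCL2: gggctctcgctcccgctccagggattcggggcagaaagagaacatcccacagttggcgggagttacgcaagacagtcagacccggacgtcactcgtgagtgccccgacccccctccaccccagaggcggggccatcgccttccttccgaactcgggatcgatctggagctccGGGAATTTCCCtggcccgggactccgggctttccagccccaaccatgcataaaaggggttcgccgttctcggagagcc
NFKBIA: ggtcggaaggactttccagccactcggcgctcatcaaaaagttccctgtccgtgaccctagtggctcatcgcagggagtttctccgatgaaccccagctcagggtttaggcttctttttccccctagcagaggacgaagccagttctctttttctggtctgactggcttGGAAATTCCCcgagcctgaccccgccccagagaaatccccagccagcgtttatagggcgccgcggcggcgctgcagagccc
CXCL8: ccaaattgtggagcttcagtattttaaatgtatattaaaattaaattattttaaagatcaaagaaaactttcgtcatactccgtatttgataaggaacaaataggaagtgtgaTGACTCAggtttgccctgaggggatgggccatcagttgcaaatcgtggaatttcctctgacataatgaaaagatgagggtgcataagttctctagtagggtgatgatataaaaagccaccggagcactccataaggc
IL1B: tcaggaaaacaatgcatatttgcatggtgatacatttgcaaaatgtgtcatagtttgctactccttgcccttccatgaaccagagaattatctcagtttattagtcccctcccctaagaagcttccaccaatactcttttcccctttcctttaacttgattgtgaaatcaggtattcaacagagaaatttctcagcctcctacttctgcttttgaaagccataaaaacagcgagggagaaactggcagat
The matches began 90 bases before the start in CXCL6, 79 in CXCL1, 78 in CXCL2 and 81 in NFKBIA, and that to TGANTCA 137 bases before the start in CXCL8. The consensus was found in 9.57% of all 27305 promoters of this length, in 6 of the 60 genes with a higher response in PC3-N that had a promoter in the table (10.0%), in 1 of 15 with a lower one, LCLAT1, and in 5 of 63 with the same response (7.94%). TGANTCA, the AP-1 type of site, searched on both strands, was in 6.6% of all promoters and in 3 of the 60 (5.0%: S100A2, NUP37 and CD68). Among the tested genes with a promoter in the table the shares were 11.1% and 4.91%, so those of the called genes lay near the shares at large. A match is a description of the letters only.

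Some genes of the higher group differed through DU-145. The fall was called there for 8 genes bright in both, NAXE, TRAPPC3, S100A2, FKBP4, COX14, CCDC88C, FHOD3 and ACO1, named after their values were seen. S100A2, a calcium-binding protein of basal epithelia, was at 548 and 539 in DU-145 and at 329 and 304 in DU-145 (PDGFRα), a fall of -0.78 (limma adjusted p = 0.0064). In PC3-N it was 1195 and 1110.2 and in PC3-N(PDGFRα) 1443 and 1299, a value of 0.25 that was not called (adjusted p = 0.18). S100A2 differed by 1.03 (SE 0.12, limma adjusted p = 0.0059) and was called in each fit that left out 1 of the 8 arrays. ACO1, an aconitase that doubles as an iron-responsive RNA-binding protein, was at 356 and 329 in DU-145 and at 201 and 196 in DU-145 (PDGFRα), against 189 and 186 in PC3-N and 243 and 234 in PC3-N(PDGFRα). It fell by 0.79 in DU-145 (limma adjusted p = 0.04), and its difference of 1.13 (SE 0.17, adjusted p = 0.022) was 1 of the 6 called with the 8 arrays alone. FHOD3, a formin that builds actin filaments, fell from 168 and 170.4 to 110 and 110.1 in DU-145 (-0.62, limma adjusted p = 0.0064) and stood at 0.09 in PC3-N. The TGF-beta-induced matrix protein gene TGFBI went from 186 and 171 to 80.2 and 95.4 in DU-145 (-1.03, limma adjusted p = 0.0021), but all 4 PC3-N arrays lay between 25.4 and 28.8, so its difference of 1.13 (adjusted p = 0.0043) compares with a background where it could not be seen.

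Genes with a lower response in PC3-N were fewer and were led by PLK2, a serum-inducible kinase of the polo family. It was at 356 and 314 in PC3-N and at 122 and 107 in PC3-N(PDGFRα), and at 194 and 179.8 in DU-145 and 191 and 217 in DU-145 (PDGFRα). PLK2 fell by 1.55 in PC3-N (limma adjusted p = 8e-05), stood at 0.13 in DU-145, where its arrays overlapped (adjusted p = 0.64), and the difference was -1.67 (SE 0.14, adjusted p = 0.0012). Unlike most named genes, it kept its call in all 16 alternatives (adjusted p up to 0.047). NMT2, which attaches myristate to proteins, was at 288 and 254 in PC3-N, 133 and 117 in PC3-N(PDGFRα), 308 and 285 in DU-145, and 370.3 and 312 in DU-145 (PDGFRα). It fell by 1.11 in PC3-N (limma adjusted p = 0.003), with 0.20 in DU-145 and a difference of -1.31 (SE 0.18, adjusted p = 0.015). UTRN, the dystrophin relative utrophin, was at 249.9 and 254 in PC3-N, 146 and 124 in PC3-N(PDGFRα), 186 and 160.3 in DU-145, and 222 and 187 in DU-145 (PDGFRα). It fell by 0.90 in PC3-N (limma adjusted p = 0.01), with 0.24 in DU-145 and a difference of -1.14 (SE 0.19, adjusted p = 0.035). The arrays of NMT2 and UTRN overlapped in neither background.

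Further members were smaller in size. TPM2, a tropomyosin of the actin cytoskeleton, went from 150.2 and 139 to 100.3 and 92.7 in PC3-N and from 99.4 and 102 to 134 and 120.1 in DU-145, responses of -0.58 and 0.34 that differed by -0.92 (SE 0.13, limma adjusted p = 0.019). CREBZF, a bZIP transcription regulator, went from 175 and 177 to 119 and 118 in PC3-N and from 153 and 146 to 186 and 176 in DU-145, a difference of -0.85 (SE 0.09, limma adjusted p = 0.0059). In both genes the fall in PC3-N was called (adjusted p = 0.015 and 0.0033) and the value in DU-145 was not (0.16 and 0.12). CCNL2, a cyclin tied to splicing (-0.78), RTL8A (-0.72), the centrosomal anchor NIN (-0.66) and LCLAT1, a cardiolipin acyltransferase (-0.50), completed the named genes of this direction, with limma adjusted p from 0.019 to 0.039. A second CCNL2 probe set gave -0.59 (limma adjusted p = 0.12). NIN differed through PC3-N alone by value, with -0.70 there and -0.04 in DU-145. Of the genes with a lower response, CREBZF lost its call only with the 8 arrays alone (adjusted p = 0.057, over a range from 0.0051), NMT2 also when PC3-N replicate 1 or PC3-N(PDGFRα) replicate 2 was dropped (0.002 to 0.078), and UTRN in each fit without 1 array (0.0065 to 0.11). TPM2, CCNL2, RTL8A, NIN and LCLAT1 lost theirs in 6 to 11 of the alternatives, all 5 of them when PC3-N replicate 1 or either PC3-N(PDGFRα) array was dropped, with adjusted p up to 0.18.

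**Figure D2:**
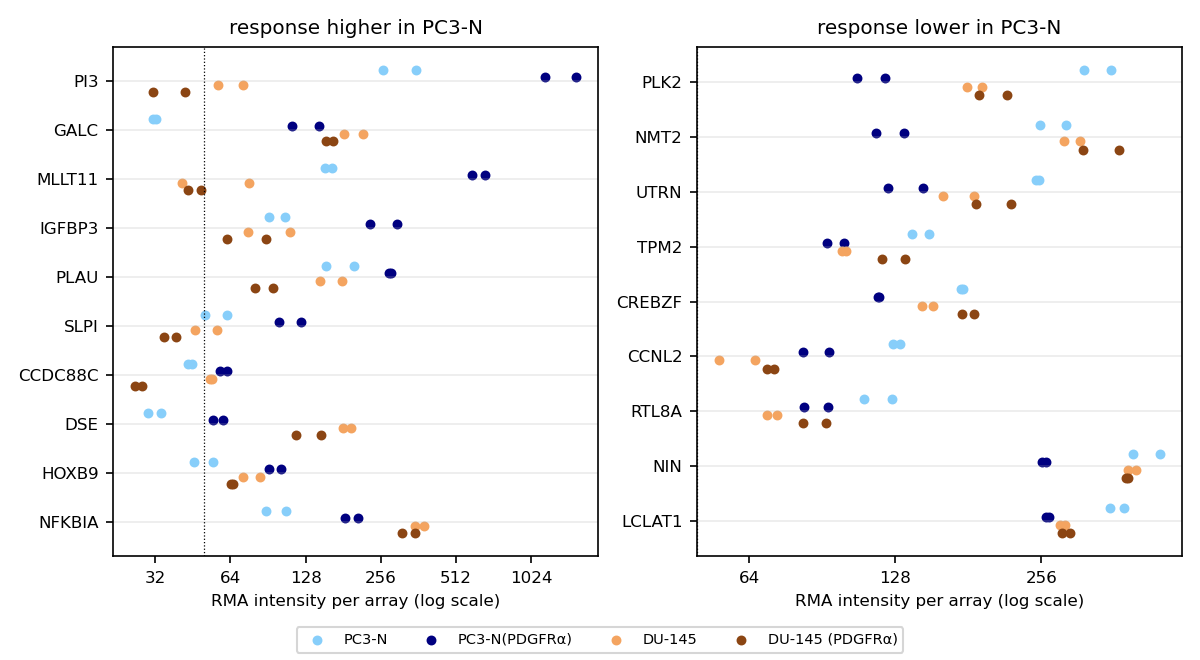
Every array of the 4 lines is shown for the named genes bright in both backgrounds, as RMA intensity on a log axis; rows are genes, points are single arrays, and the dotted line marks an intensity of 50. In the left panel the PC3-N(PDGFRα) points lie to the right of PC3-N while the DU-145 (PDGFRα) points lie mostly to the left of DU-145, as for PI3 at 31.3 and 41.9 against 71.6 and 56.8; in the right panel PC3-N(PDGFRα) lies to the left.

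A further 45 called genes were not bright in both backgrounds, 0.376% of the 11977 such genes, with 34 higher and 11 lower in PC3-N. In 37 of them both DU-145 lines lay under 50, in 24 both PC3-N lines did, and in 16 all 4 lines did. Beside IL1B and CXCL6, the largest higher responses were those of ESM1, a proteoglycan of vascular endothelium (2.17, limma adjusted p = 0.0014), the cysteine protease inhibitor CST1 (1.87, adjusted p = 0.041) and EPB41L3, a membrane skeleton protein (1.66, adjusted p = 0.0059). Lower ones were led by CCNA1, cyclin A1 (-1.91, limma adjusted p = 0.0043), the tetraspanin TSPAN8 (-1.88, 0.0074), PLAT, the tissue plasminogen activator (-1.62, 0.03), RGS4, a regulator of G protein signalling (-1.60, 0.022), and the membrane transporter SLC4A11 (-0.77, 0.03). All 4 DU-145 arrays of these 8 genes lay under 50. With the 8 arrays alone all 8 lost the call, ESM1, EPB41L3, CCNA1 and TSPAN8 in that fit only (adjusted p up to 0.078). CST1, PLAT, RGS4 and SLC4A11 lost it in 6 to 9 of 16 alternatives (up to 0.16), all 4 of them when PC3-N(PDGFRα) replicate 2, DU-145 replicate 1 or DU-145 (PDGFRα) replicate 1 was dropped. Just inside the brightness limit among called genes were FABP6 (51.2 in the brighter line of the dimmer background), SLPI (51.3) and CCDC88C (53.6), and just outside it JPH1 (48.9), CCNA1 (43.9) and MOCOS (43.8).

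Of all genes, 35 (0.191%) had an unadjusted p under 0.01 in each background with opposite directions, and 24 of these were among the called differences. In 29 the value was positive in PC3-N and negative in DU-145, and in 6 the reverse. PI3, PLAU, SLPI, CCDC88C and DSE had the largest differences. The 6 in the reverse direction included TPM2, CREBZF and RTL8A. By the same p in each background, 81 genes (0.441%) had the same direction.

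For 78 of the 81 the 95% interval of the difference lay within -1 to 1, and these are the genes with the same response, 0.425% of those tested; 71 of them were bright in both backgrounds, 1.11% of such genes. They were small changes: 42 were positive in both backgrounds (0.229%), with medians of 0.40 in PC3-N and 0.36 in DU-145, and 36 negative (0.196%), with medians of -0.39 and -0.40. No response exceeded 0.74 in PC3-N or 0.67 in DU-145 in size. TXNIP, PDGFRA and NUDT11 were outside because their intervals passed 1. The rule did not use adjusted p. In PC3-N 28 of the 78 were called and in DU-145 3, TFDP1, OBI1 and CASP6, of which OBI1, a ubiquitin ligase at replication origins, and CASP6, a caspase, were called in both. NUP37, a nuclear pore protein, met the rule and had a called difference as well, with 0.74 and 0.21. They were 6.87% of the genes with an unadjusted p under 0.01 in PC3-N and 9.01% of those in DU-145.

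Of the genes higher in both backgrounds, TTK, the spindle checkpoint kinase, was at 86.4 and 97.8 in PC3-N, 135 and 109 in PC3-N(PDGFRα), 145 and 124 in DU-145, and 178 and 179 in DU-145 (PDGFRα), responses of 0.40 and 0.41. KIF20B, a kinesin of cytokinesis, went from 99.0 and 108 to 148 and 127 in PC3-N and from 238 and 247 to 329 and 319.5 in DU-145, responses of 0.41 and 0.42 with an interval of the difference of -0.30 to 0.27. The spindle genes KIF14, NDC80, MAD2L1 and AURKA and the mitotic kinase PBK, named after their values were seen, met the rule too, with values of 0.36 to 0.40 in PC3-N and 0.22 to 0.50 in DU-145. Of a list of 14 mitotic genes only 2 met it, AURKA and TTK. Members such as PLK1 (-0.04 in PC3-N and -0.16 in DU-145) and MKI67 (-0.11 and -0.03) did not rise. ARPC3, a subunit of the Arp2/3 complex that branches actin, went from 157 and 142 to 259.9 and 212 in PC3-N and from 236 and 272 to 366 and 349 in DU-145, with 0.65 and 0.49. DNAJB4, a co-chaperone, had 0.62 in both backgrounds although its level differed between them, with 36.7 and 52.7 in PC3-N and 325 and 361 in DU-145. The phosphatase UBLCP1 (0.55 and 0.53), the zinc finger genes ZCCHC10 (0.52 and 0.49) and ZMAT2 (0.53 and 0.49), the mucin-like membrane protein PDPN (0.70 and 0.47), ODF2L (0.45 and 0.42) and TMEM69 (0.40 and 0.41) were the others named. Among the 10 named here, the rises of UBLCP1, ARPC3, ZCCHC10 and PDPN in PC3-N were called (limma adjusted p from 0.016 to 0.043), and no value in DU-145 was (0.094 to 0.17). UBLCP1 met the rule in all 16 alternatives. ARPC3 missed it in 1, without DU-145 replicate 1, PDPN and KIF20B in 2, ZCCHC10 in 3, ODF2L in 4, DNAJB4 in 5, ZMAT2 and TTK in 7 and TMEM69 in 8. Dropping PC3-N replicate 1 ended it for TTK, KIF20B, DNAJB4, ZCCHC10, ZMAT2, ODF2L and TMEM69, and dropping DU-145 replicate 1 or DU-145 (PDGFRα) replicate 2 ended it for PDPN.

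Genes lower in both included MET, the receptor for hepatocyte growth factor. It went from 716 and 566 to 469.9 and 474 in PC3-N and from 350.0 and 340.2 to 253 and 272 in DU-145, responses of -0.43 and -0.40 with an interval of the difference of -0.38 to 0.31. PTPN14, a tyrosine phosphatase that restrains YAP, had -0.48 in both, from 193 and 163 to 129.5 and 125 and from 266 and 257 to 191 and 184. CRIM1, a transmembrane protein that binds bone morphogenetic proteins, had -0.44 in both. The actin crosslinker ACTN4 (-0.62 and -0.54), SMDT1, a subunit of the mitochondrial calcium uniporter (-0.64 and -0.60), the aldo-keto reductase AKR1E2 (-0.73 and -0.60), TMBIM1 (-0.49 and -0.67), the histone H4 methyltransferase KMT5A (-0.46 and -0.41), BTBD6 (-0.43 and -0.41) and the initiation factor subunit EIF3B (-0.40 and -0.42) completed the group. Falls in PC3-N were called for AKR1E2, PTPN14 and KMT5A (limma adjusted p = 0.047, 0.025 and 0.02) and none in DU-145 (0.066 to 0.18). Another probe set of KMT5A, with a mean of 378, gave -0.41 and -0.33, and a dim one, with a mean of 36.4, gave -0.02 and -0.13. PTPN14 and KMT5A met the rule in all 16 alternatives, AKR1E2 missed it in 2, TMBIM1 in 3, BTBD6 in 4, CRIM1 and EIF3B in 5, SMDT1 in 7, MET in 8 and ACTN4 in 9. MET missed it whenever any 1 of the 8 arrays other than PC3-N replicate 2 was dropped, and with a floor of 32.

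Of the 20 named genes with the same response, 13 missed the rule when replicate 1 of PC3-N was dropped and 4 when its replicate 2 was. The corresponding numbers were 9 and 8 for replicates 1 and 2 of PC3-N(PDGFRα), 9 and 8 for those of DU-145, and 9 and 10 for those of DU-145 (PDGFRα). The count of 78 became 43 when PC3-N replicate 1 was dropped, 46 when PC3-N(PDGFRα) replicate 1 was and 131 when DU-145 replicate 2 was, and 12 genes, among them AURKA, KIF14, PTPN14, KMT5A, UBLCP1, OBI1 and CASP6, met the rule in each fit that left out 1 of the 8 arrays. Only 2 met it when an adjusted p was asked of each background.

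**Figure D3:**
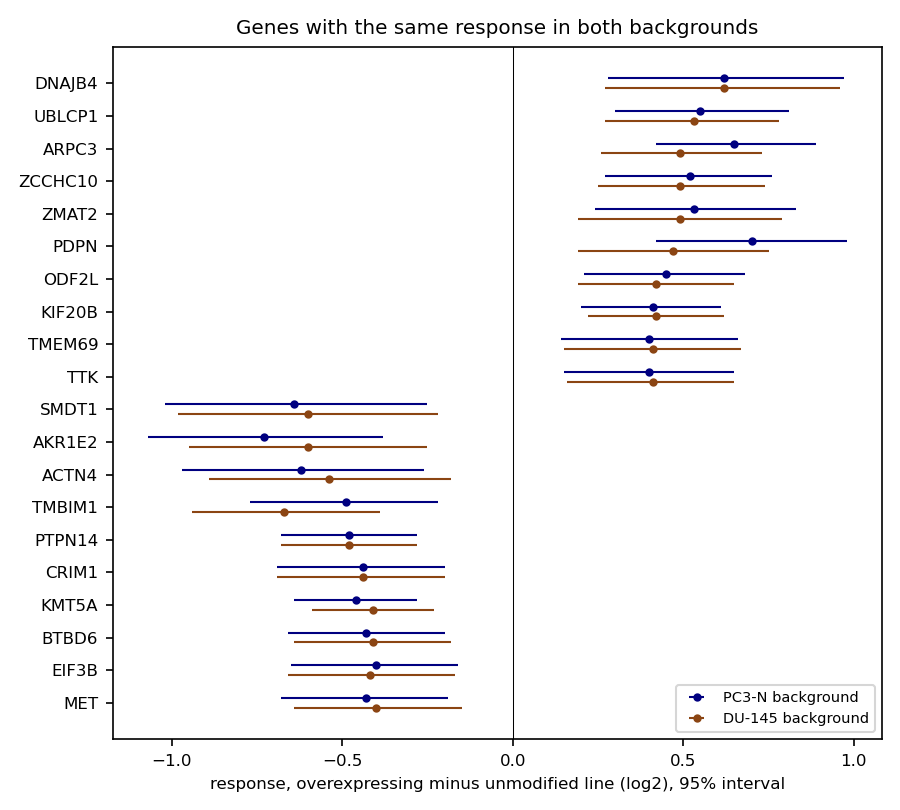
Log2 responses of the 20 named genes with the same response, with 95% intervals from limma, in the PC3-N background (dark blue) and the DU-145 background (brown). Points of a gene lie on the same side of 0 and within each other's intervals, from 0.62 and 0.62 for DNAJB4 to -0.43 and -0.40 for MET.

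Of 7 PDGF ligands and receptors, PDGFRA included, 13 adaptors and enzymes that bind the receptor, 15 immediate early genes and 16 MAPK feedback and output genes, 0 were called in the difference (limma; 2, 3, 3 and 4 at an unadjusted p under 0.05). The shares of all genes were 0.533% called and 12.4% at that unadjusted p (19.5% among bright genes), so lists of this size would hold few or no called members at the share of all genes. PDGFRA is 1 of the 2 in the first list. The median differences were 0.09, 0.18, -0.06 and -0.23, against 0 for all genes tested and 0.08 for those bright in both. The docking protein GAB1 was at 167 and 116 in PC3-N, 60.2 and 57.9 in PC3-N(PDGFRα), 64.8 and 45.1 in DU-145, and 65.7 and 54.5 in DU-145 (PDGFRα). Its fall of -1.24 in PC3-N was called (limma adjusted p = 0.021), the difference of -1.39 was not (adjusted p = 0.098, 0.019 to 0.24 over the alternatives), and a second probe set gave -0.06. PTPN11, the phosphatase SHP2, had 0.24 in PC3-N and -0.25 in DU-145, a difference of 0.49 (limma adjusted p = 0.094). STAT3, a transcription factor activated by receptor kinases, lay between 23.8 and 26.3 on all PC3-N arrays and between 248 and 416 on all DU-145 arrays. In PC3-N, 3 of the 16 MAPK feedback and output genes were called lower, against 0.68% of all genes. They were SPRY1, an inhibitor of receptor signalling, EPHA4, an ephrin receptor (-0.48, limma adjusted p = 0.016), and CCND1, cyclin D1 (-0.62, adjusted p = 0.038). EPHA4 was under 50 in all 4 lines, with means of 46.35 in PC3-N and 33.34 in PC3-N(PDGFRα). SPRY1 had -0.96 in PC3-N (limma adjusted p = 0.028) and -0.46 in DU-145, and SPRY4 had -0.83 and 0.05. Their differences of -0.50 and -0.88 were not called (limma adjusted p = 0.48 and 0.31). SPRY4 was not bright in both backgrounds. For the DU-145 pair its line means were 34.71 (unmodified) and 35.46 (overexpressing), so how SPRY4 responded there cannot be read.

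In the remaining lists the counts of called members stand against 0.533% of all genes and 0.829% of bright genes. All lists of the report were chosen with earlier results of these data known. A count above the share of all genes is therefore not read as a result. IL1B was the 1 called of 10 IL-1 family members and receptors, NFKBIA of 15 NF-kB subunits and inhibitors, and CXCL6 of 15 chemokines and cytokines, with list medians of 0.06, 0.13 and 0.17. Secreted defence proteins had 3 of 12 called, PI3, SLPI and CST1, all higher, with a median of 0.25. Plasminogen activation had 1 in each direction of 8, with PLAU higher (1.56) and PLAT lower (-1.62). Single members were called among 12 metalloproteinases and TIMPs (TIMP3, an inhibitor of matrix proteases, -0.74, limma adjusted p = 0.046, with -0.25 in a second probe set), 11 integrins (ITGB3, the beta chain of the vitronectin receptor, 0.78, adjusted p = 0.03), 14 TGF-beta genes (TGFBI), 11 lysosomal enzymes (GALC), 14 cyclins and CDK inhibitors (CCNA1) and 9 leukocyte and endothelial markers (CD68, 1.01, adjusted p = 0.03). TIMP3 was under 50 in all 4 lines, as was ITGB3, and both lost their calls in several alternatives, TIMP3 in 12 and ITGB3 in 7 of 16, both of them when replicate 1 of any of the 4 lines or DU-145 (PDGFRα) replicate 2 was dropped (adjusted p up to 0.15 and 0.38). TIMP3 lost it too when PC3-N or PC3-N(PDGFRα) replicate 2 was dropped. With a floor of 32 the difference of ITGB3 was 0.24. CD68 was at 94.6 and 103 in PC3-N, 159 and 154 in PC3-N(PDGFRα), 142 and 123 in DU-145, and 93.3 and 116 in DU-145 (PDGFRα), and lost its call in 7, among them those that dropped either PC3-N(PDGFRα) array or replicate 1 of another line (up to 0.15). No other of the 9 markers was called in the difference. The endothelial marker PECAM1 had 0.77 in PC3-N, where its line means were 49.5 and 85.9, and a difference of 0.81 (limma adjusted p = 0.36). LYZ, the lysozyme gene, had -0.48 in PC3-N and a difference of -0.57 (limma adjusted p = 0.28). KDR, a receptor for vascular endothelial growth factor, had -0.71 and -0.72 (limma adjusted p = 0.44). In DU-145 and DU-145 (PDGFRα) the line means were 22.6 and 21.9 for PECAM1, 22.2 and 23.7 for LYZ, and 25.6 and 25.7 for KDR. How PECAM1, LYZ and KDR responded there cannot be read. PTPRC, which marks leukocytes, was at 19.9 to 20.5 in all 4 lines. The summed level of PTPRC, CD68 and LYZ was 150 in PC3-N, 198 in PC3-N(PDGFRα), 175 in DU-145 and 149 in its overexpressing line, and the part of such markers in the results was not tested.

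Glycolysis and hypoxia genes, amino acid and endoplasmic reticulum stress genes, TXNIP and NRF2-controlled genes, mitotic genes, sterol synthesis genes, interferon-stimulated genes, epithelial, mesenchymal, stromal and bone genes had 0 called in the difference by limma, with 1 to 4 of each, or 0 of the stromal markers, at an unadjusted p under 0.05. Mitotic genes had medians of 0.16 in PC3-N and 0.14 in DU-145, and 2 of the 14, AURKA and TTK, met the rule for the same response, against 0.425% of all genes and 1.11% of bright genes; all 14 were bright. Glycolysis and hypoxia genes had medians of -0.18 and -0.40. Among epithelial genes, MAL2, a protein of apical transport, fell in DU-145 (-1.34, limma adjusted p = 0.04) and stood at -0.38 in PC3-N, and EPCAM, an epithelial adhesion protein, had -0.50 and 0.36. EPCAM's difference of 0.86 was not called (limma adjusted p = 0.074), while its second probe set gave 1.30 (adjusted p = 0.04). The cadherin CDH1 was at 250 and 81.8 in DU-145, so its passages differed as much as the lines did, and its difference of 1.29 was not called (limma adjusted p = 0.38). In these bulk samples fewer cells that express a gene and less RNA per cell cannot be told apart.

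**Figure D4:**
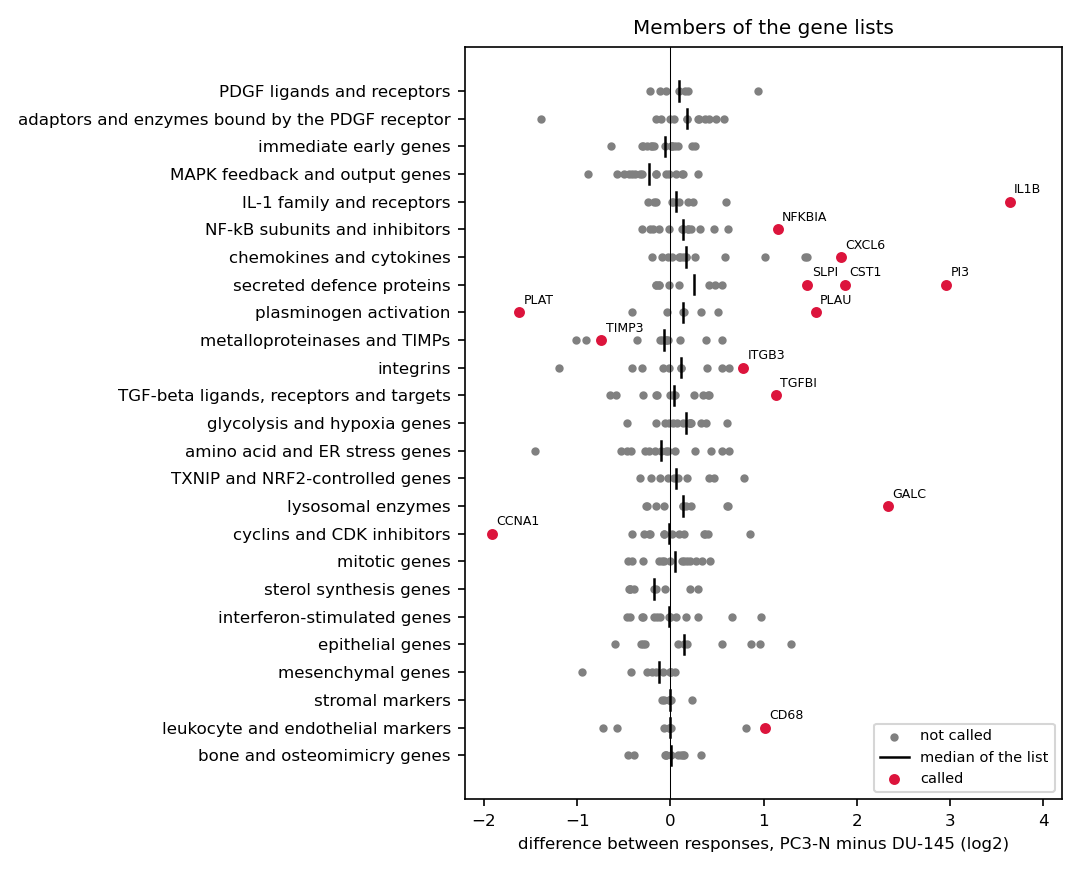
Difference between responses (PC3-N minus DU-145, log2) for each tested member of the 25 gene lists, 1 list per row, with called genes in red and named and the median of each list as a bar. Medians lie between -0.23 and 0.25, and called members such as IL1B at 3.64 and CCNA1 at -1.91 stand apart from the other members of their lists.

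The other PC3 lines give the levels of these genes without added receptor. PC3-ML and its single-cell clones, Clone 1 and Clone 3, are labelled bone metastatic, and their levels of PDGFRA were 130, 28.8 and 128 (line means). NFKBIA had line means of 205, 202 and 197 in PC3-ML, Clone 1 and Clone 3, near those of PC3-N(PDGFRα) and above both PC3-N arrays. PI3 was at 1064, 1078 and 2260, IL1B at 261, 737 and 511, and CXCL6 at 230.1, 350.5 and 349. In these 4 genes all 3 lines were above PC3-N, as they were for SLPI, at 113, 94.3 and 271. MLLT11, at 131, 95.8 and 150.5, and GALC did not follow, since PC3-N(PDGFRα) alone of the PC3 lines was high. IGFBP3, at 119, 103 and 59.9, and PLAU, at 159, 262 and 131, lay on both sides of their PC3-N means. PLK2 was at 221, 75.3 and 325, with Clone 3 between the 2 PC3-N arrays. NMT2, at 207, 158 and 234, was below both PC3-N arrays in all 3 lines. These levels were not tested against PC3-N here.

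**Figure D5:**
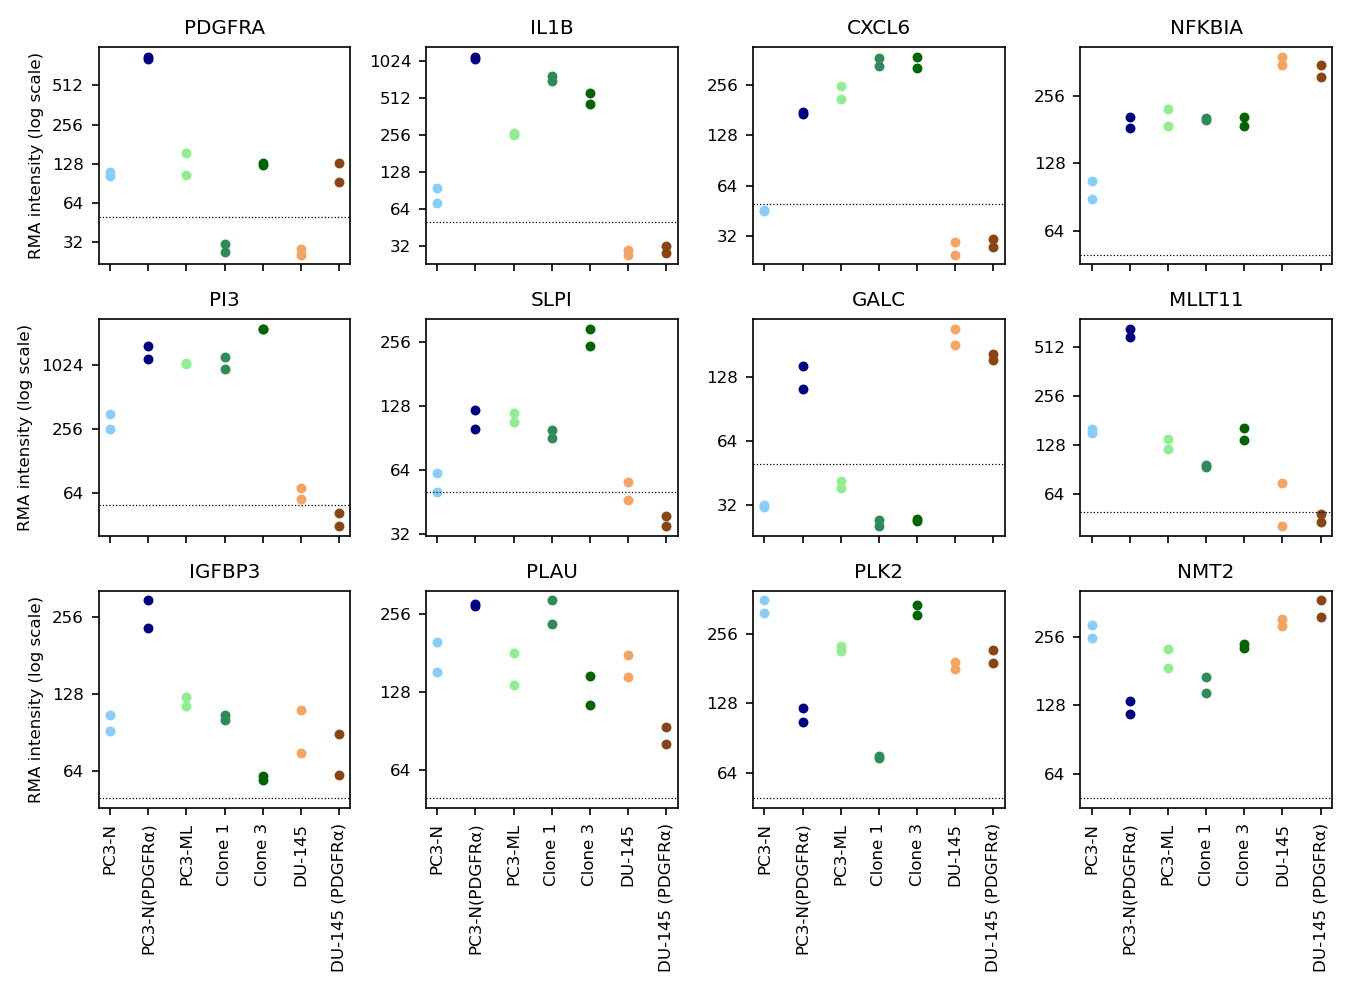
RMA intensity on a log axis for 12 genes on all 14 arrays, 2 points per line, with the dotted line at 50. NFKBIA, PI3, SLPI, IL1B and CXCL6 are higher in PC3-N(PDGFRα), PC3-ML and both clones than in PC3-N, and NMT2 is lower. GALC is high among the PC3 lines in PC3-N(PDGFRα) alone.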

How the data were processed

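Total RNA of 7 human prostate cancer lines was hybridised, 2 passages per line, to 14 single-colour arrays after biotin labelling. The deposited table held intensities that the authors had made with RMA, per the submitters' processing notes (its version is not given in the sources used here). From 18.5 to 8654, they showed a linear scale and were converted to log2 with no pseudocount. Of 28829 probe sets, 19291 had 1 gene symbol, 1735 several and 7803 none in the probe table. Of the first, 19260 matched RefSeq genes (GRCh38.p14), with 0 symbols updated. In the 682 genes with several probe sets the brightest over all arrays was used, leaving 18372 genes.

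A limma model (version 3.58.1, R 4.3.3) with a mean for each line used all 14 arrays (7 residual and 2.78 prior degrees of freedom), and the difference between responses was a contrast, two-sided. The fit was tested on simulated data. The number of arrays limits the precision, and arrays carry no counts. Brightness was applied after the adjustment. Same response meant an unadjusted p under 0.01 in each background, 1 direction, and a 95% interval within -1 to 1.

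Named were PDGFRA, IL1B and CXCL6, the 10 largest called differences per direction among bright genes, 5 per direction among the others, 10 per direction with the same response, the 5 largest opposite ones, and called or leading members of 25 lists (298 genes tested), leaving out small RNAs, Y-linked genes, and antisense, pseudogene and unnamed loci. The members, lists and rules were chosen with earlier results of these data known.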

Additional observations from a re-analysis of the deposited data

Results flagged for a closer look

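The difference between the responses of the 2 backgrounds was tested directly by limma, and each result here is in this list because that test was passed. It was passed by 98 genes, and by 53 among those bright in both. Among the latter, the difference (PC3-N minus DU-145, log2) was 2.96 for PI3, 2.33 for GALC, 2.27 for MLLT11, 1.71 for IGFBP3, 1.56 for PLAU, 1.47 for SLPI, 1.42 for CCDC88C, 1.35 for DSE, 1.21 for HOXB9, 1.15 for NFKBIA and 1.01 for CD68. In the other direction it was -1.67 for PLK2, -1.31 for NMT2, -1.14 for UTRN, -0.92 for TPM2, -0.85 for CREBZF, -0.78 for CCNL2, -0.72 for RTL8A, -0.66 for NIN and -0.50 for LCLAT1.

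Genes dim in a background, whose size is uncertain, were IL1B (3.64), ESM1 (2.17), CST1 (1.87), CXCL6 (1.83), EPB41L3 (1.66), TGFBI (1.13) and ITGB3 (0.78), and on the lower side CCNA1 (-1.91), TSPAN8 (-1.88), PLAT (-1.62), RGS4 (-1.60), SLC4A11 (-0.77) and TIMP3 (-0.74). With 2 arrays per line no single array could be tested as an outlier.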

How the results depend on the processing

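All values here are counts of genes. The 98 called differences ranged from 26 to 249 when 1 of the 8 arrays was left out, the 53 among bright genes from 11 to 152, and the 78 genes with the same response from 43 to 131; such a fit leaves a line with 1 array, whose spread is assumed to be that of the others. With the 8 arrays alone the first count was 6 and the second 4. A filter on dim probe sets gave 86 bright called genes and 43 with the same response, a floor of 32 gave 24 bright called genes, and limma with trend and robust settings 51 with the same response. A line mean of 100 or more left 34 bright called genes, and an adjusted p in each background left 2 with the same response. Quantile normalization turned the split of all called genes from 77 higher and 21 lower to 66 and 30. Of 33 called named genes, 5 (IL1B, CXCL6, GALC, CCDC88C and PLK2) kept the call in all 16 alternatives and 28 lost it in at least 1; 24 named genes that were not called gained it in at least 1, 0 of the 33 called changed sign, and 25 of the other named genes did in at least 1. The replicate numbers were not used to pair the samples. Deviations of same-numbered arrays correlated at 0.04 to 0.24, which cannot show whether those arrays shared any handling. With a replicate block the counts were 72, 38 and 74.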
